A study of Saccharomyces cerevisiae with 20 samples.

Results

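The genes described here take up phosphate, release it from organic compounds or store it as polyphosphate in *S. cerevisiae*. They are 10 named genes, PHO84 (YML123C), PHO89 (YBR296C), SPL2 (YHR136C), PHO3 (YBR092C), PHO5 (YBR093C), PHO8 (YDR481C), VTC1 (YER072W), VTC2 (YFL004W), VTC3 (YPL019C) and VTC4 (YJL012C), and their probe sets were found by gene symbol in the array annotation, with no measured value used. They have 11 probe sets (a probe set is a group of short probes that reports 1 transcript), 2 of them for VTC4, among the 6647 features assigned to protein-coding genes and the 9335 features of the array in all. RNA came from the haploid laboratory strain CEN.PK113-7D (MATa MAL2-8C SUC2), which all samples shared, grown in bioreactors on a defined medium that held 20 g/L glucose, at 30°C and pH 5.0. The 2 aerobic cultures were sparged with air and sampled in exponential phase (expo), late expo, at the diauxic shift, in the post-diauxic phase, and in early and late stationary phase (SP). The 2 anaerobic cultures were sparged with nitrogen and sampled in expo, at the end of expo, and in early and late SP. Only the anaerobic medium held 10 mg/L ergosterol and 420 mg/L Tween 80, dissolved in ethanol, so that the effects of oxygen and of these additions cannot be told apart. Each of the 10 conditions has 2 arrays, 1 per culture, which makes 20 in all. The samples of a regime follow the same 2 cultures over time. In the study, SP began when glucose ran out in anaerobic cultures. In aerobic cultures it began only after the slow post-diauxic growth, once ethanol and organic acids were used up too. Comparisons of the regimes in early and late SP therefore set unlike growth histories side by side, and these cannot be told apart from oxygen.

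Yeast takes up phosphate with a pair of high-affinity transporters, Pho84 and Pho89, which are made when phosphate is scarce, and with low-affinity transporters that serve when it is plentiful. A small protein, Spl2, is known to hold back low-affinity uptake. The transcription factor Pho4 drives many of these genes, and it is kept inactive by the cyclin-dependent kinase Pho85 with its cyclin Pho80 while phosphate is plentiful. Phosphate is stored in the vacuole as polyphosphate, a chain that the VTC complex (vacuolar transporter chaperone) builds from ATP.

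Values are linear array signals that the authors scaled to a common average. They measure shares of the RNA of a whole culture, so that fewer expressing cells and less RNA per cell cannot be told apart. Signals below a floor of 12 were set to 12 for the tests. Of the 6647 features, the 580 whose signal stayed below 20 on all arrays were left out, and the other 6067 probe sets were fitted with limma on the log2 scale. Calls needed both an adjusted p below 0.05 (Benjamini-Hochberg, over all 6067) and at least a 2-fold difference. Of the 10 genes, 9 were tested, and PHO5 was left out because its signal was too low. VTC4 was counted by the brighter of its probe sets. Log2 fold changes compare aerobic with anaerobic cultures, or a later with an earlier phase of the same cultures, and their standard errors (SE) come from the fit over all 20 arrays.

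The summed signal of 5 genes for growth on ethanol and acetate (ADH2, FBP1, ICL1, MLS1 and JEN1) averaged 18870 to 34450 in aerobic cultures from the diauxic shift on and 164 in aerobic expo, and did not pass 339 in any anaerobic condition. The summed signal of 6 genes induced without oxygen (ANB1, CYC7, COX5B, AUS1, DAN1 and TIR1) averaged 329 to 2496 in aerobic and 22266 to 33028 in anaerobic conditions, but not each of them followed the regime. CYC7 averaged 1450 at the aerobic diauxic shift and 464 in the post-diauxic phase, against 11.9 in anaerobic expo and 31.0 at the end of expo, and COX5B averaged 50.8 at the aerobic diauxic shift and 46.6 in anaerobic expo. The 4 MATa markers were expressed in all conditions, while STE3, a marker of the other mating type, averaged 11.9 to 23.5. The second such marker, SAG1, averaged 38.1 to 91.8 in the other 9 conditions and 225 in aerobic late SP, above the MATa marker STE2 there (109). RNA integrity, read as the ratio of the 3′ to the 5′ control probe sets of ACT1, was 1.2 to 2.68 on the aerobic and 1.33 to 1.92 on the anaerobic arrays, and the 2.68 belonged to 1 of the aerobic late SP arrays. The same ratio was 2.36 to 7.74 on the aerobic and 3.36 to 5.24 on the anaerobic arrays for SPT15, highest on an aerobic late expo array, and 2.85 to 11.2 and 2.71 to 6.91 for SRB4.

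The transcripts for high-affinity phosphate uptake were low during growth on glucose in both regimes, rose in aerobic cultures after glucose was used up, and were higher there than in anaerobic cultures in SP. PHO89, which encodes the sodium-coupled phosphate transporter, reached the widest span of the 10 genes with the floor of 12 applied, which cuts the span of SPL2 short. Its signal in the aerobic cultures 1 and 2 was 38.8 and 34.8 in expo, 26.0 and 25.6 in late expo, 162 and 211 at the diauxic shift, 963 and 771 in the post-diauxic phase, 1332 and 1288 in early SP, and 708 and 918 in late SP. In the anaerobic cultures it was 30.1 and 22.0 in expo, 30.6 and 24.2 at the end of expo, 75.8 and 71.5 in early SP, and 98.1 and 96.9 in late SP. All aerobic arrays from the diauxic shift on were thus above all anaerobic arrays. Between its highest and lowest condition PHO89 differed by 5.67 on the log2 scale, which placed it 174th of the 6067 probe sets, whose median span was 1.89.

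The aerobic rise of PHO89 came in 2 large steps. Its log2 fold change was 2.84 at the diauxic shift over late expo (SE 0.20, adjusted p = 3.21e-08) and 2.22 in the post-diauxic phase over the diauxic shift (SE 0.20, adjusted p = 4.62e-06). The second of these steps was the 34th highest of the 6067. It coincided with higher signals of growth genes: NOP1, needed for ribosome synthesis, averaged 482 in the post-diauxic phase and 111 at the diauxic shift, and the SRB4 3′ to 5′ ratios were 8.16 and 11.2 in the post-diauxic phase and 4.68 and 4.42 at the diauxic shift. The part of either in the signals of PHO89 and PHO84 at this step was not tested. Early SP over the post-diauxic phase added 0.60 (adjusted p = 0.0307), and late over early SP gave -0.70 (adjusted p = 0.0105), neither of them 2-fold. Without oxygen, PHO89 was higher in early SP than at the end of expo by 1.44 (SE 0.20, adjusted p = 1.66e-05).

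PHO84 encodes the main high-affinity transporter, which imports phosphate together with protons. Its probe set was dim throughout. In the aerobic cultures 1 and 2 its signal was 18.1 and 12 in expo, 15.6 and 13.2 in late expo, 32.2 and 26.5 at the diauxic shift, 87.6 and 75.2 in the post-diauxic phase, 142 and 149 in early SP, and 116 and 116 in late SP. All 8 anaerobic signals lay between 16.9 and 34.0. Like PHO89, PHO84 rose at the diauxic shift over late expo (1.03, SE 0.21, adjusted p = 0.000912) and again in the post-diauxic phase over the diauxic shift (1.47, SE 0.21, adjusted p = 0.00029). The first of these steps was 2.04-fold, and with quantile normalization it was 0.49 (adjusted p = 0.0997). It fell short of the 2-fold limit without culture 1 at the diauxic shift (0.89) or culture 2 in late expo (0.91). In contrast to PHO89, PHO84 did not pass the limits in any step of the anaerobic cultures, where late SP over expo gave 0.79 (SE 0.21, adjusted p = 0.00387).

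SPL2 was below the floor in aerobic cultures until glucose was exhausted, with 3.7 and 3.4 in expo and 3.1 and 7.5 in late expo. Its aerobic signal was then 40.3 and 34.7 at the diauxic shift, 54.4 and 70.4 in the post-diauxic phase, 258 and 221 in early SP, and 407 and 296 in late SP. The anaerobic values were 6.6 and 8.2 in expo, 7.2 and 13.4 at the end of expo, 76.3 and 97.2 in early SP, and 90.3 and 111 in late SP. SPL2 therefore rose in both regimes, and its signals at the end of glucose growth and in SP did not overlap. Because both expo arrays lay at the floor, the late SP signal was at least 28.9-fold higher than in expo with oxygen and at least 8.35-fold higher without (adjusted p = 2.39e-11 and 6.5e-09). Its second large aerobic step came later than those of the transporters, in early SP over the post-diauxic phase (1.95, SE 0.20, adjusted p = 2.86e-06), where PHO84 had 0.84 and PHO89 had 0.60. Whether these steps differ between the genes was not tested.

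**Figure D1:**
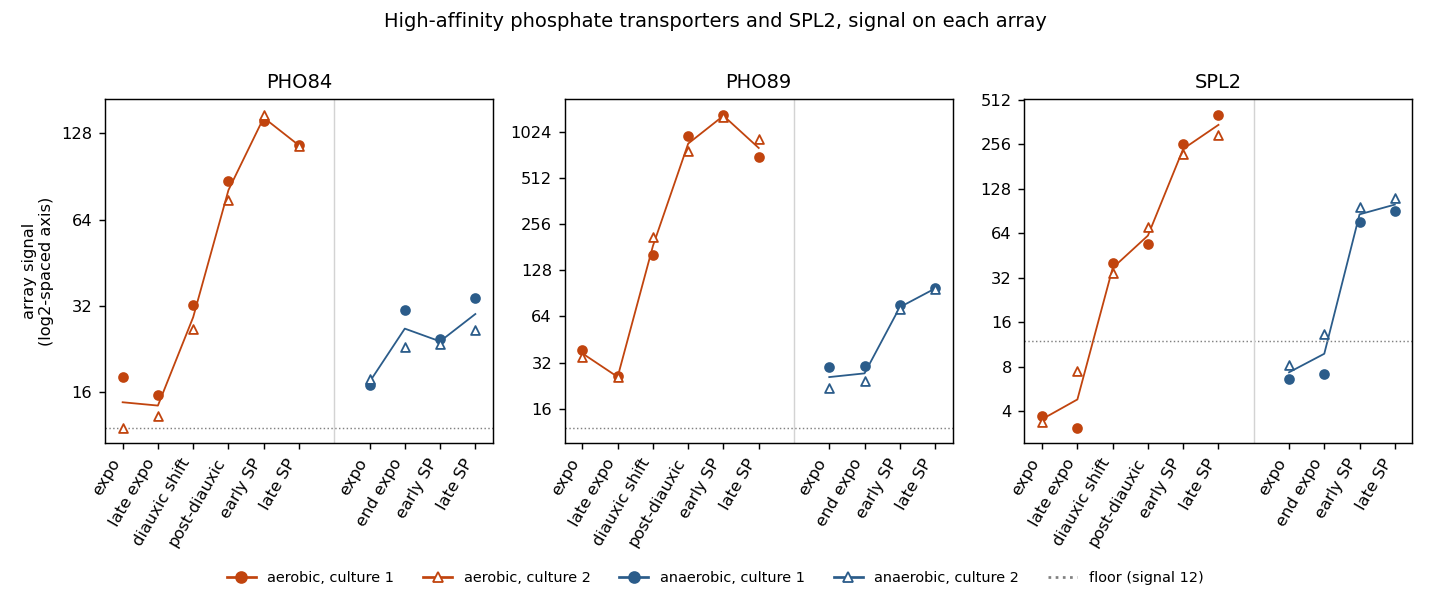
Signal of PHO84, PHO89 and SPL2 (vertical axis, array signal, log2-spaced) in each sampled phase, aerobic cultures on the left of each panel and anaerobic cultures on the right. Points are single arrays, lines join the geometric means of the 2 cultures, and the dotted line is the floor of 12. PHO89 reaches 1332 with oxygen and 98.1 without, and PHO84 stays at or below 34.0 in the anaerobic cultures.

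The order of levels over the 10 conditions was similar at the top for both transporters. PHO84 was highest in aerobic early SP, followed by aerobic late SP and the post-diauxic phase, and neighbours in this order did not overlap. The next conditions, anaerobic late SP, the aerobic diauxic shift and the anaerobic end of expo, overlapped from 1 to the next. PHO89 was highest in aerobic early SP as well, and the post-diauxic phase and late SP, which came next, overlapped. SPL2 was highest in aerobic late SP and then in aerobic early SP, with no overlap between their arrays, followed by anaerobic late and early SP, which overlapped. In SPL2, anaerobic SP thus stood above the aerobic post-diauxic phase, whereas in PHO84 and PHO89 it stood below.

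During growth on glucose, 0 of the 9 tested genes were called between the regimes. The shares over all probe sets were low as well, so nothing particular to these genes is read from this. In expo, 0 of the 9 tested genes differed between aerobic and anaerobic cultures (limma, 1 at an unadjusted p below 0.05), beside 7.96% of all tested probe sets (5.08% higher and 2.88% lower). Log2 fold changes ran from -0.23 to 0.51, and the largest, that of PHO89, had a 95% interval of 0.08 to 0.95. In aerobic late expo against the anaerobic end of expo, 0 of 9 were called (1 at an unadjusted p below 0.05), beside 9.05% of all probe sets (6.05% higher and 3% lower). PHO84 came nearest there, with -0.89 (SE 0.21, adjusted p = 0.00932), which is below the 2-fold limit. It was called without culture 1 in aerobic late expo or culture 2 at the anaerobic end of expo.

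In the first phases sampled after glucose ran out, 2 of the 9 genes differed, in opposite directions, beside 22.4% of all probe sets (15.9% higher and 6.56% lower). This comparison sets the aerobic diauxic shift against anaerobic early SP. The sample labels do not give the time since glucose ran out, so the 2 sides may differ in it. PHO89 was higher in the aerobic cultures (1.33, SE 0.20, adjusted p = 0.000114) and SPL2 was lower (-1.20, SE 0.20, adjusted p = 0.000224). With quantile normalization PHO89 was at 0.98, just under the 2-fold limit. PHO3 (-0.97, adjusted p = 0.0053), VTC4 (0.96, adjusted p = 0.000517) and VTC1 (0.61, adjusted p = 0.0027) passed the p threshold but not the fold. PHO84 gave 0.28 (adjusted p = 0.312). Without culture 1 in anaerobic early SP, 4 genes were called.

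In early SP, 4 of the 9 genes were higher in aerobic cultures and 0 were lower, beside 25.1% of all probe sets (16.1% higher and 9.02% lower). PHO89 was 17.8-fold higher (log2 fold change 4.15, SE 0.20, adjusted p = 4.99e-10), which was the 43rd highest value of the 6067. PHO84 was 6.04-fold higher (2.59, SE 0.21, adjusted p = 1.57e-07). SPL2 was 2.77-fold higher (1.47, SE 0.20, adjusted p = 2.73e-05), the reverse of its direction in the comparison at glucose exhaustion, and both comparisons use the same anaerobic arrays. VTC4, the catalytic subunit of the polyphosphate polymerase, was 2.40-fold higher (1.26, SE 0.18, adjusted p = 3.75e-05). The median log2 fold change of the 9 genes was 0.65, beside 0.21 over all probe sets.

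In late SP, 4 genes were again higher with oxygen and 0 lower, beside 31.1% of all probe sets (18.2% higher and 12.8% lower). PHO89 was 8.27-fold (3.05, adjusted p = 1.28e-08), PHO84 3.88-fold (1.96, adjusted p = 2.93e-06) and SPL2 3.46-fold higher (1.79, adjusted p = 3.3e-06). The vacuolar phosphatase gene PHO8 was called as well, at 2.51-fold (1.33, SE 0.16, adjusted p = 9.28e-06). VTC4 passed only the p threshold here (0.71, adjusted p = 0.00326), as PHO8 had in early SP (0.65, adjusted p = 0.00456). The ACT1 3′ to 5′ ratios were 2.68 and 2.10 in aerobic late SP and 1.64 and 1.62 in anaerobic late SP. Their part in these differences was not tested. In early SP the same ratios were 1.77 and 1.87 with oxygen and 1.55 and 1.69 without. The differences of PHO84 and PHO89 were larger in early SP and those of SPL2 and PHO8 were larger in late SP. Whether they changed between the 2 phases was not tested.

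**Figure D2:**
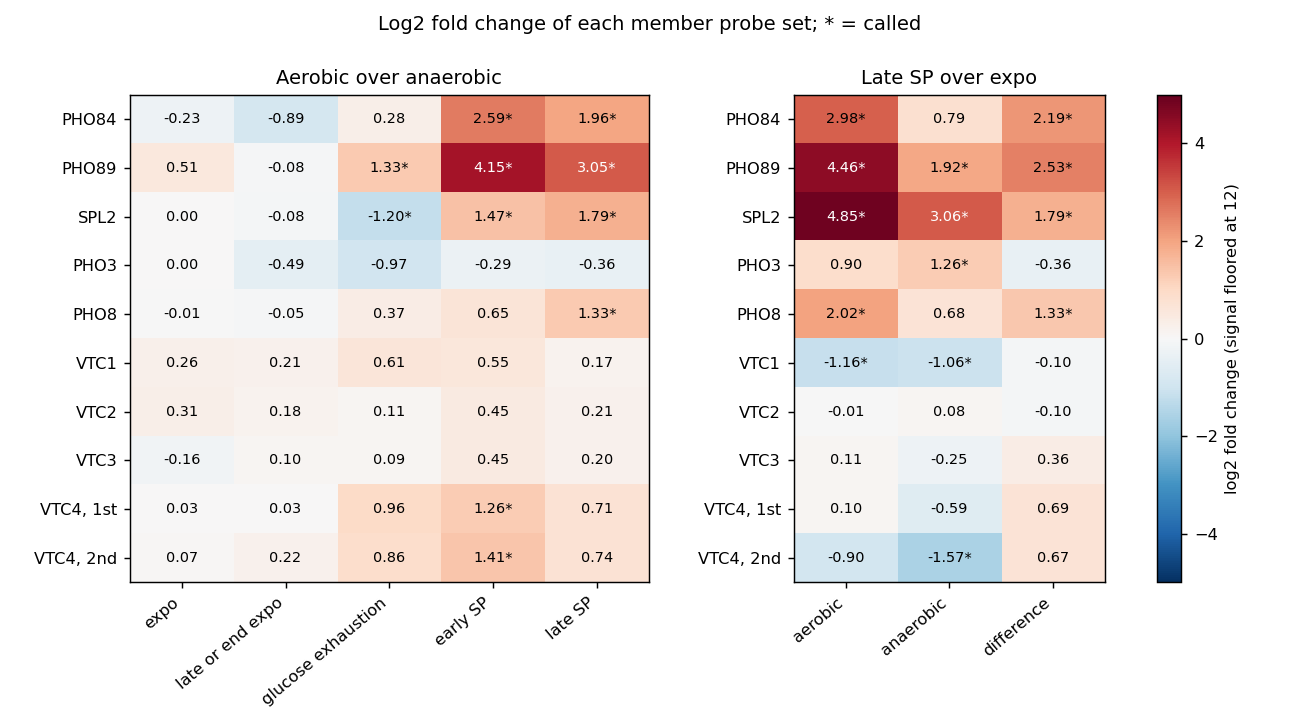
Log2 fold changes (colour and number) of the 10 tested probe sets, in rows, for aerobic over anaerobic cultures in 5 phases (left) and for late SP over expo in each regime with the difference of the 2 (right). The first VTC4 row is the brighter probe set, and an asterisk marks a call (adjusted p below 0.05 and at least 2-fold). PHO89, PHO84 and SPL2 carry the highest values in both SP phases, and VTC2 and VTC3 carry no asterisk.

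The change from expo to late SP itself differed between the regimes for 4 of the 9 genes, each with a larger increase in aerobic cultures, beside 33.3% of all probe sets (19.1% with the larger increase in aerobic cultures and 14.2% in anaerobic ones). On the log2 scale the aerobic change exceeded the anaerobic one by 2.53 for PHO89 (SE 0.29, adjusted p = 9.41e-06), 2.19 for PHO84 (SE 0.30, adjusted p = 5.18e-05), 1.79 for SPL2 (SE 0.28, adjusted p = 0.000157) and 1.33 for PHO8 (SE 0.23, adjusted p = 0.000365). For SPL2 both expo groups lay at the floor, so its value rests on the late SP signals alone. The 5 other tested genes lay between -0.36 and 0.69. Within the aerobic cultures 4 genes rose and 1 fell from expo to late SP, beside 51.1% of all probe sets (25.9% higher and 25.3% lower). Within the anaerobic cultures 3 rose and 1 fell, beside 51.9% (23.1% higher and 28.8% lower).

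PHO8 encodes the alkaline phosphatase of the vacuole. In the aerobic cultures 1 and 2 its signal was 146 and 120 in expo, 133 and 133 in late expo, 280 and 265 at the diauxic shift, 282 and 211 in the post-diauxic phase, 335 and 325 in early SP, and 571 and 500 in late SP. Its anaerobic signal was 127 and 138 in expo, 135 and 140 at the end of expo, 208 and 213 in early SP, and 213 and 213 in late SP. The groups before and after glucose exhaustion did not overlap in either regime. PHO8 rose 4.05-fold from expo to late SP with oxygen (2.02, SE 0.16, adjusted p = 4.02e-08), and the anaerobic change of 0.68 passed the p threshold only (SE 0.16, adjusted p = 0.00152). Its call at the diauxic shift over late expo (1.04, adjusted p = 8.59e-05) was lost with quantile normalization (0.74) and without culture 1 at the diauxic shift (0.998).

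PHO3 encodes an acid phosphatase of the periplasm that is known to act on thiamine phosphates, and it lies next to its paralog PHO5 on chromosome II in the RefSeq annotation of strain S288C (assembly R64). The pattern of PHO3 was unlike that of the transporters, as its highest values were anaerobic. Its signal was 63.5 and 35.0 in aerobic expo, 37.0 and 48.1 in late expo, 88.2 and 79.9 at the diauxic shift, 70.8 and 50.6 in the post-diauxic phase, 120 and 153 in early SP, and 88.6 and 86.9 in late SP. In the anaerobic cultures it was 47.5 and 46.6 in expo, 62.6 and 55.7 at the end of expo, 162 and 168 in early SP, and 106 and 120 in late SP. Early SP was the peak of both regimes, and the aerobic arrays at this peak lay below the anaerobic ones. This difference was not called (limma, log2 fold change -0.29 for aerobic over anaerobic, adjusted p = 0.368).

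PHO3 was higher in anaerobic early SP than at the end of expo by 1.48 (SE 0.25, adjusted p = 7.93e-05) and in aerobic early SP than in the post-diauxic phase by 1.17 (SE 0.25, adjusted p = 0.00183). The aerobic call was lost without culture 2 of the post-diauxic phase (0.93) or of early SP (0.998). At the aerobic diauxic shift over late expo, PHO3 was higher by 0.99 (SE 0.25, adjusted p = 0.00338), just under the 2-fold limit. PHO3 was not called between the regimes in any of the 5 comparisons. The 2 expo arrays of the aerobic cultures spanned the whole range of the arrays taken during growth on glucose.

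PHO5 encodes the acid phosphatase that is best known for its induction by phosphate starvation. Its probe set gave 0.2 to 0.7 on the aerobic arrays and 0.2 to 2.6 on the anaerobic arrays, below the floor on all 20. No level and no fold difference can therefore be given for PHO5, including the conditions in which PHO84 and PHO89 were high. A probe set shared by PHO11 and PHO12, which encode acid phosphatases similar to Pho5, gave 127 and 135 in aerobic early SP and 149 and 154 in anaerobic early SP, and it cannot be assigned to either gene. Which bases the probes of these similar genes read is not given in the sources used here, and signal crossing between them was not tested.

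The 4 VTC genes did not all follow 1 course, and no test compared them with each other. Over the 10 conditions, log2 means of VTC1 had a Pearson correlation of 0.345 with the brighter VTC4 probe set and 0.851 with the dimmer one. Those of VTC3 had 0.772 and 0.439, and those of VTC2 had 0.418 and 0.174. Between VTC1 and VTC3 it was -0.033, and VTC2 had 0.128 with VTC1 and 0.127 with VTC3. VTC1, the small membrane subunit, fell in both regimes. Its signal was 1566 and 1491 in aerobic expo, 1490 and 1629 in late expo, 1059 and 997 at the diauxic shift, 960 and 1036 in the post-diauxic phase, 1002 and 974 in early SP, and 711 and 658 in late SP. Without oxygen it was 1350 and 1205 in expo, 1335 and 1368 at the end of expo, 664 and 687 in early SP, and 633 and 588 in late SP. The aerobic decrease thus came at the diauxic shift and again in late SP, with a level stretch between, and the anaerobic decrease came in 1 step. Neither aerobic step was 2-fold, with -0.60 over late expo (adjusted p = 0.00198) and -0.53 in late over early SP (adjusted p = 0.00565). The medians over all probe sets at these 2 steps were 0.17 and -0.22.

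From expo to late SP, VTC1 fell by 1.16 with oxygen (SE 0.14, adjusted p = 2.44e-06) and by 1.06 without (SE 0.14, adjusted p = 6.02e-06), and the difference between these changes was -0.10 (95% interval -0.51 to 0.32). Both values lie close to the 2-fold limit. The aerobic one was -0.99 with quantile normalization, and the anaerobic one was -0.92 with scaling to housekeeping genes and -0.98 without culture 1 in expo. The anaerobic step from the end of expo to early SP (just past the 2-fold limit, adjusted p = 1.37e-05) missed that limit once culture 1 in early SP (-0.98) or culture 2 at the end of expo (-0.98) was left out.

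VTC2 and VTC3 encode alternative subunits that define separate forms of the complex. VTC3 had 78.7 at its lowest, 120 at the median and 171 at its highest aerobic array, and 79.5, 100.2 and 113 on the anaerobic arrays. VTC2 had 214, 380 and 584 on the aerobic and 317, 330.2 and 379 on the anaerobic arrays. The regimes overlapped for both genes, and the aerobic cultures 1 and 2 lay apart in VTC2, with 584 and 394 in early SP. Neither varied over the 10 conditions (adjusted p = 0.256 for VTC2 and 0.107 for VTC3), while 7 of the 9 genes did, beside 86.7% of all probe sets. Over the 16 comparisons the log2 changes of VTC2 ran from -0.44 to 0.79 and those of VTC3 from -0.60 to 0.45. One of them passed the p threshold, VTC2 in aerobic early SP over the post-diauxic phase (adjusted p = 0.0234), at less than 2-fold.

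VTC4 has 2 probe sets, and they disagreed over time. By the brighter probe set the aerobic signal was 379 and 385 in expo, 360 and 441 in late expo, 553 and 554 at the diauxic shift, 527 and 455 in the post-diauxic phase, 615 and 756 in early SP, and 356 and 470 in late SP. The anaerobic signal was 390 and 361 in expo, 393 and 388 at the end of expo, 298 and 272 in early SP, and 265 and 235 in late SP. By this probe set VTC4 did not pass the 2-fold limit in any time step, although the diauxic shift over late expo gave 0.47 (SE 0.18, adjusted p = 0.0334).

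The dimmer VTC4 probe set gave 326 and 300 in aerobic expo, 284 and 355 in late expo, 239 and 228 at the diauxic shift, 318 and 322 in the post-diauxic phase, 333 and 346 in early SP, and 171 and 163 in late SP. In the anaerobic cultures it gave 321 and 276 in expo, 267 and 277 at the end of expo, 139 and 119 in early SP, and 111 and 90.4 in late SP. It moved the other way at the diauxic shift over late expo (-0.44, SE 0.16, adjusted p = 0.0323). It also fell from anaerobic expo to late SP by 1.57 (SE 0.16, adjusted p = 6.17e-07), where the brighter one gave -0.59 (SE 0.18, adjusted p = 0.00735). Between the regimes they were close, with 1.26 by the brighter and 1.41 by the dimmer probe set in early SP (adjusted p = 3.75e-05 and 6.48e-06). The gene table lists YJL012C-A as a second name of VTC4, and which stretch each probe set reads is not given in the sources used here.

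**Figure D3:**
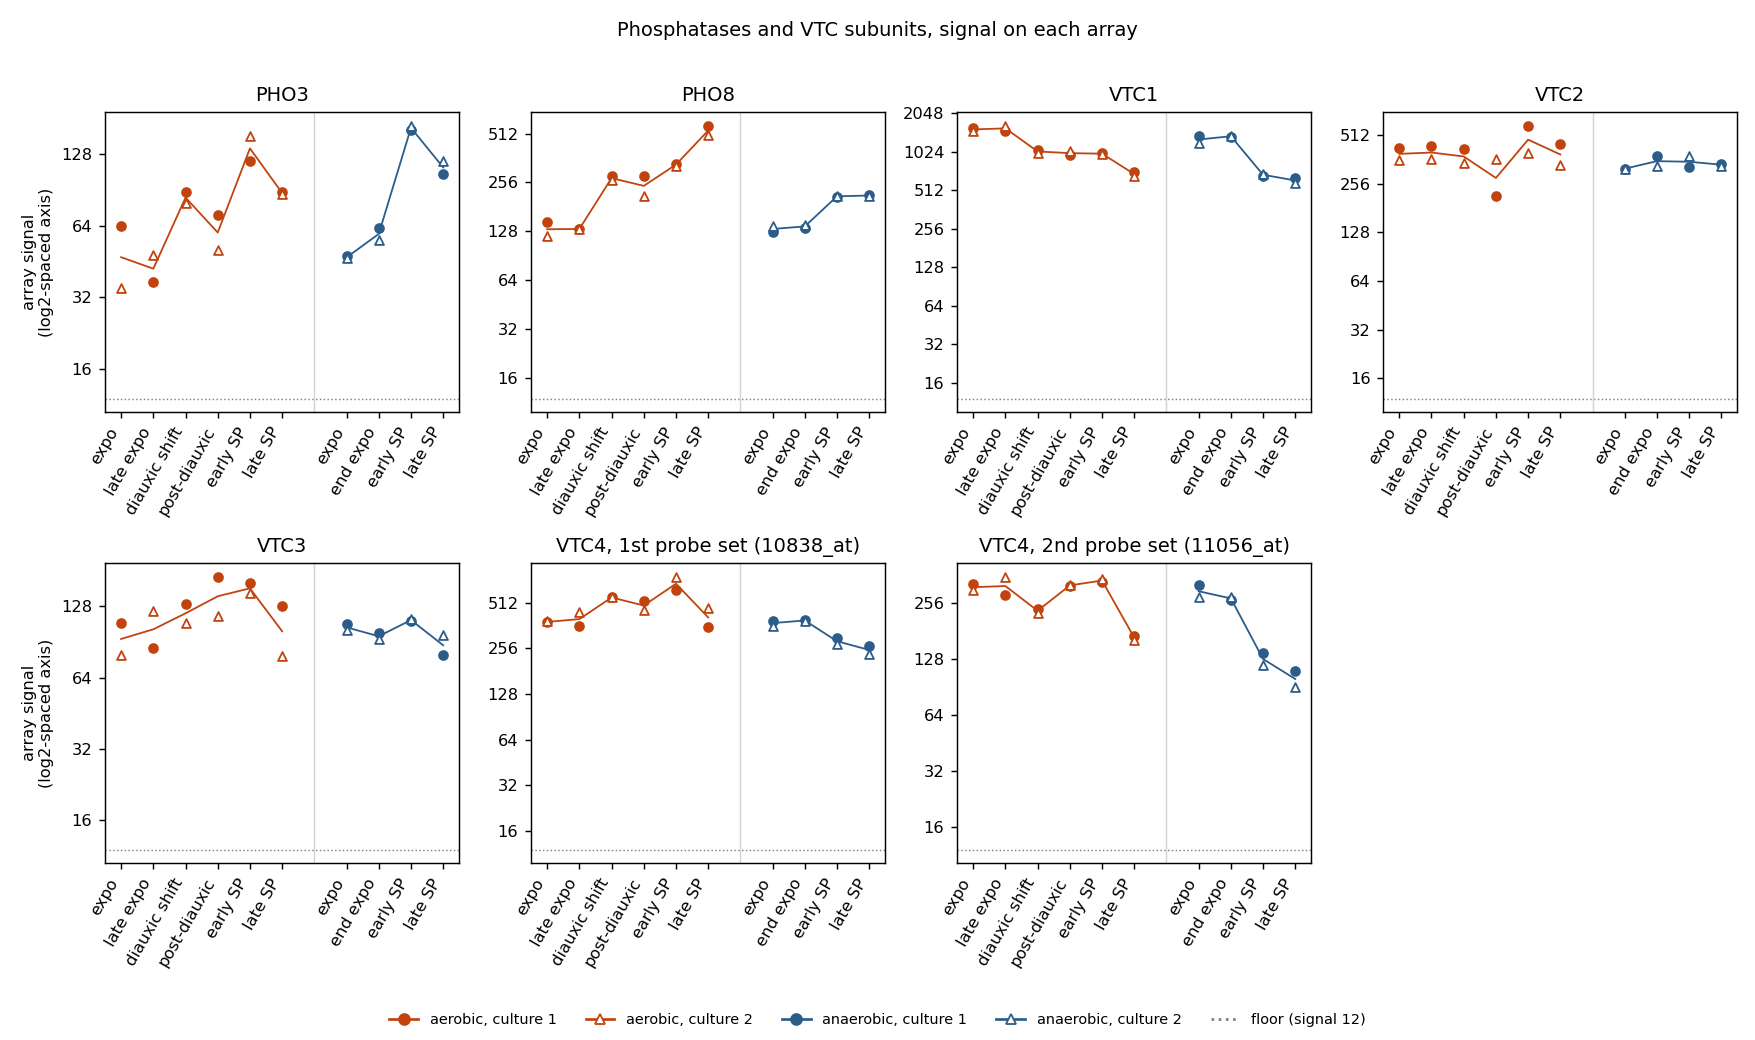
Signal of PHO3, PHO8 and the VTC genes (vertical axis, array signal, log2-spaced) in each phase, aerobic cultures on the left of each panel and anaerobic cultures on the right, drawn as in the plot of the uptake genes. PHO3 peaks in early SP in both regimes, PHO8 is highest in aerobic late SP at 571 and 500, and the 2 VTC4 probe sets (the first is the brighter) move in opposite directions at the diauxic shift.

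Step by step, the aerobic calls of the 9 genes came at the diauxic shift, in the post-diauxic phase and in early SP. Late expo over expo gave 0 calls (limma, 1 at an unadjusted p below 0.05), beside 0% of all probe sets. The diauxic shift over late expo gave 4 genes higher (PHO84, PHO89, SPL2 and PHO8) and 0 lower, beside 32.1% of all probe sets (19.4% higher and 12.7% lower). Only 2 of these 4 were called with a floor of 30, with quantile normalization or without culture 1 at the diauxic shift. The post-diauxic phase over the diauxic shift gave PHO84 and PHO89, both higher, beside 11% of all probe sets (7.42% higher and 3.54% lower). Early SP over the post-diauxic phase gave SPL2 and PHO3, both higher, beside 18.3% (6.81% higher and 11.5% lower). Late over early SP gave 0 calls (limma), beside 24.4% (8.01% higher and 16.4% lower), with 7 genes at an unadjusted p below 0.05 and 5 at an adjusted one, all of them under 2-fold.

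The anaerobic calls of the 9 genes were gathered in 1 step, as were those of the array as a whole. Nothing particular to these genes is read from this. The end of expo over expo gave 0 calls (1 at an unadjusted p below 0.05), beside 0.478% of all probe sets (0.412% higher and 0.0659% lower). Early SP over the end of expo gave 3 genes higher (PHO89, SPL2 and PHO3) and VTC1 lower, beside 47.7% (23.9% higher and 23.8% lower). Late over early SP gave 0 calls (1 at an unadjusted p below 0.05), beside 0.412% (0.0165% higher and 0.396% lower).

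The wider phosphate pathway was read from a list of 28 further genes, of which 26 were tested with a probe set of their own. In early SP, 6 of these 26 were higher and 3 lower in aerobic cultures, beside 16.1% of all probe sets higher and 9.02% lower. In late SP, 4 were higher and 2 lower, beside 18.2% and 12.8%. From expo to late SP, 7 rose and 5 fell with oxygen, beside 51.1% of all probe sets called, and 5 rose and 7 fell without it, beside 51.9%. These counts are near or below the shares over all probe sets, apart from the higher calls in early SP, and nothing particular to the list is read from them. The median log2 changes of the list were 0.11 and -0.26, beside 0.06 and -0.10 over all probe sets.

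Of the transporters of lower affinity, PHO90 and PHO91 fell at glucose exhaustion in both regimes, while PHO87 was not called there (-0.06 with oxygen and -0.85 without, adjusted p = 0.864 and 0.0029). PHO90, a low-affinity phosphate transporter of the plasma membrane, had 113 and 106 at the aerobic diauxic shift, against 424 and 372 in late expo (log2 fold change -1.86, SE 0.18, adjusted p = 1.12e-06). In the anaerobic cultures it had 97.0 and 78.3 in early SP, against 534 and 486 at the end of expo (-2.55, SE 0.18, adjusted p = 2.58e-08). Its arrays before and after glucose exhaustion did not overlap in either regime. PHO91, which exports phosphate from the vacuole, fell at the same steps by 1.15 in the aerobic and by 1.35 in the anaerobic cultures (adjusted p = 5.67e-05 and 6.3e-06).

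PHO87, the other low-affinity transporter of the plasma membrane, had 706 and 435 in aerobic early SP, against 224 and 206 in anaerobic early SP (1.37, SE 0.22, adjusted p = 0.000133). It then fell in aerobic late SP over early SP by 1.23 (adjusted p = 0.000364). Across the 10 conditions the log2 means of SPL2 and PHO90 had a Pearson correlation of -0.89 and those of SPL2 and PHO87 one of -0.30. These are descriptions over 10 conditions that come from the same 4 cultures.

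**Figure D4:**
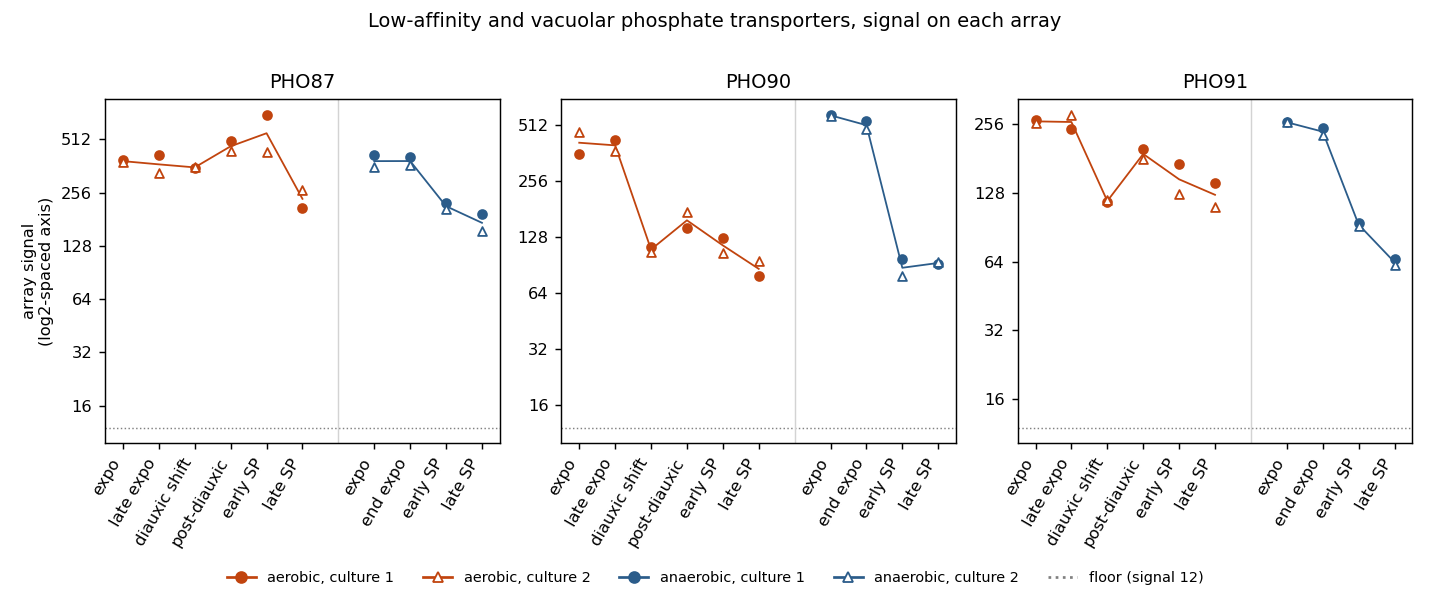
Signal of PHO87, PHO90 and PHO91 (vertical axis, array signal, log2-spaced) in each phase, aerobic cultures on the left of each panel and anaerobic cultures on the right, drawn as in the plot of the uptake genes. PHO90 is below 180 on every array taken after glucose exhaustion and above 350 on every array before it.

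Among the regulators, PHO4, the transcription factor of the pathway, had 366 and 390 at the aerobic diauxic shift, against 99.4 and 96.9 in anaerobic early SP (1.95, SE 0.17, adjusted p = 6.31e-07). In early SP it was higher in aerobic cultures by 1.27 (adjusted p = 3.17e-05), and it fell by 1.62 from anaerobic expo to late SP (adjusted p = 8.75e-07). PHO85, the kinase that holds Pho4 back, went the other way between the regimes, with -1.09 in early and -1.30 in late SP for aerobic over anaerobic (adjusted p = 0.000805 and 0.000147). PHO2, which acts with Pho4, was below the floor on all expo arrays. The cyclin gene PHO80 and PHO81, which encodes an inhibitor of the kinase, were not called between the regimes in any phase.

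Other genes of polyphosphate and phosphate handling differed as well. PHM7, a phosphate-regulated gene of unknown function, had 889 and 779 in aerobic early SP, against 178 and 173 in anaerobic early SP (2.25, SE 0.19, adjusted p = 1.65e-07). It did not stay up after the diauxic shift as PHO84 and PHO89 did, since it had 62.0 and 53.6 in the post-diauxic phase, against 387 and 252 at the shift (-2.44, adjusted p = 8.02e-07). PHM8, a phosphatase gene, had 12.6 and 13.8 in aerobic early SP, against 126 and 135 in anaerobic early SP (-3.31, SE 0.16, adjusted p = 5.9e-10). VTC5, a further subunit of the VTC complex, was lower in aerobic cultures at the same phase by 1.32 (log2 fold change -1.32, SE 0.23, adjusted p = 0.000252).

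MIR1 and PIC2 encode the phosphate carriers of the mitochondrion. MIR1 had 3402 and 3554 in aerobic expo, against 841 and 741 in anaerobic expo (log2 fold change 2.14, adjusted p = 7.13e-07), and it was the only gene of the 26 called there. It was also higher in aerobic early SP (1.58, adjusted p = 6.15e-06) and was not called in late SP. PIC2 was higher in anaerobic early SP than at the end of expo by 3.39 (adjusted p = 0.000432), but its aerobic cultures disagreed, with 648 and 72.6 in expo. SYG1, which encodes a membrane protein of the SPX family, had 1724 and 1551 in aerobic late SP, against 366 and 340 in anaerobic late SP (2.21, adjusted p = 5.32e-08).

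Genes that break down polyphosphate moved in different ways. DDP1, which encodes a phosphatase of inositol pyrophosphates that is also known to cut polyphosphate, was higher in anaerobic early SP than at the end of expo (1.43, SE 0.25, adjusted p = 0.000117). PPX1, the cytosolic exopolyphosphatase, fell from expo to late SP by 2.03 with oxygen and by 1.38 without (adjusted p = 7.86e-08 and 4.63e-06). PPN2, a vacuolar polyphosphatase, fell by 1.80 with oxygen (adjusted p = 3.52e-06) and was lower there than in anaerobic late SP (-1.32, adjusted p = 0.000177). PPN1, the main vacuolar polyphosphatase, was not called in any of the 16 comparisons.

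Because PHO3 is tied to thiamine, 11 thiamine genes were read beside it. In early SP, 5 of the 11 were higher in aerobic cultures and 0 lower, beside 16.1% of all probe sets higher and 9.02% lower, with the thiamine transporter gene THI7 at 2.09 (adjusted p = 8.87e-07) and THI73, which encodes a putative carboxylate transporter, at 2.80 (adjusted p = 3.89e-08). In late SP, 5 were higher and 0 lower, beside 18.2% and 12.8%. PHO3 gave -0.29 and -0.36 in these comparisons (adjusted p = 0.368 and 0.239).

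For each of the 7 genes that varied, the tested probe sets with the most similar course over the 10 conditions were looked up. The closest to PHO84 was NBP2 (Pearson correlation of log2 means 0.978), and the closest to PHO89 was DAL5, an allantoate transporter gene, with both of its probe sets (0.987 and 0.976). For SPL2 the list was led by RTT103 (0.994) and ARO9 (0.988), and ARO9 is the gene next to SPL2 in the annotation. The closest to PHO3 was NUS1 (0.979), to PHO8 YKL222C (0.988) and to VTC1 OST5 (0.985). VTC4 was closest to MMS4 by its brighter probe set (0.992) and to NUD1 by the dimmer one (0.980). PHO84 and PHO89 had 0.951 with each other, and 0.847 and 0.85 with SPL2. PHO8 had 0.862 with PHO84, 0.886 with PHO89 and 0.924 with SPL2. These correlations describe 10 conditions, and nothing about shared function or control is read from them.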

How the data were processed

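RNA was hybridised to Affymetrix YG-S98 arrays, and the deposited values are linear intensity signals, 1 per probe set, that the authors scaled so that each array had the same average signal. The trimmed mean (without 2% on each side) was 240.2 to 240.3 on all arrays, and 1823 to 2822 features were below 12. As array numbers limit precision, and each condition has 2 cultures, p-values measure the spread between these cultures only. For SPL2, both arrays of aerobic expo, aerobic late expo and anaerobic expo were set to the floor. These conditions add no spread to its fit, which lowers its SE and p-values. Of the 9335 features, 6647 were assigned to protein-coding genes in the platform annotation, 328 had several symbols and 2503 were not listed. Symbols, locus tags and neighbouring genes come from RefSeq (assembly R64), and no sequence was used here.

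Log2 signals (floor 12, highest signal at least 20) of the 6067 probe sets were fitted with limma 3.58.1 in R 4.3.3 as 10 condition means over all 20 arrays (10 residual and 4.732 prior degrees of freedom), after tests on simulated data. P-values were adjusted (Benjamini-Hochberg) within each of the 16 comparisons and for the test over all conditions. Plots were drawn with matplotlib 3.10.9. Alternatives were floors of 1 and 30, no filter and a filter at 100, quantile normalization, scaling to 6 housekeeping genes, fits of the compared arrays only, culture as a block, no fold limit and leaving out each array.

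Same-numbered samples of a regime are 1 culture followed over time, which pairs them. Their deviations from the condition means had a median correlation of 0.121 over 15 aerobic pairs of phases (-0.555 to 0.373) and 0.0936 over 6 anaerobic pairs (-0.00273 to 0.179).

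All 10 genes were named, and of the pathway and thiamine lists the called genes with the largest log2 changes, at most 4 in a comparison. PHO4, PHO85 and VTC5 in aerobic over anaerobic early SP, PHO91 and DDP1 at glucose exhaustion, PHO87 in aerobic late SP and the genes given as not called were added after their values were seen. The genes and lists were chosen with earlier results of these data known.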

Additional observations from a re-analysis of the deposited data

Results flagged for a closer look

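The change from expo to late SP differed between aerobic and anaerobic cultures for 4 of the 9 tested uptake and storage genes and 9 of the 26 wider pathway genes, by the limma test of the difference itself (aerobic minus anaerobic change, log2). Of all probe sets 33.3% were called in this comparison, so that the share of the pathway genes is close to that of the array as a whole. Among the uptake and storage genes these were PHO84 (2.19), PHO89 (2.53), SPL2 (1.79) and PHO8 (1.33). Among the wider pathway genes the aerobic change was the higher one for SYG1 (2.40), PHM7 (1.91), PHO92 (1.25) and PHO2 (1.22). It was the lower one for PIC2 (-2.71), MIR1 (-1.53), PPN2 (-1.36), VTC5 (-1.26) and PHO85 (-1.07). SPL2, PHM7, PHO92 and PHO2 lay at the floor in expo of both regimes, so that their differences rest on the late SP arrays. The value of PIC2 rests on 2 aerobic expo arrays with signals of 648 and 72.6. With 2 arrays a condition, no sample could be tested as standing apart within its group.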

How the results depend on the processing

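No fold change of a called phosphate gene changed sign under any alternative run. The differences between the regimes in early and late SP, and in the change from expo to late SP, gave 4 called genes with each floor, filter, scaling, block and left-out array. For the diauxic shift over late expo, 4 called genes became 2 with a floor of 30 (SPL2 0.32, PHO84 0.05) and 2 with quantile normalization (PHO8 0.74, PHO84 0.49). Quantile normalization also gave 1 call in place of 0 for aerobic late over early SP. With no fold limit the counts were 6 in early SP, 5 in late SP and 5 for the difference between the regimes, 3 for the post-diauxic phase over the diauxic shift, 6 for aerobic late SP over expo and 6 for anaerobic early SP over the end of expo. They were 1 for aerobic late expo over the anaerobic end of expo, 5 at glucose exhaustion, 7 for the diauxic shift over late expo, 6 for aerobic early SP over the post-diauxic phase, 5 for aerobic late over early SP, and 7 for anaerobic late SP over expo. The share of all probe sets was not counted without the fold limit, so nothing particular to these genes is read from these counts.

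Leaving out each array in turn assumed that a lone array varies like the others, and gave 2 to 5 calls for the diauxic shift over late expo, 2 to 4 at glucose exhaustion and 0 to 1 for aerobic late expo over the anaerobic end of expo. The count at glucose exhaustion was 4 without culture 1 of anaerobic early SP. Counts for aerobic late SP over expo were 5 to 6, and those for anaerobic early SP over the end of expo and late SP over expo were 3 to 4. The dimmer VTC4 probe set fell in aerobic late over early SP (-1.02), with values of -0.76 under quantile normalization and -0.89 under scaling to housekeeping genes. It was also just under the 2-fold limit, at -0.97, in anaerobic early SP over the end of expo without culture 2 of early SP.

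With culture as a replicate block, as a fixed or a random term, the counts stayed the same, such as 4 in early SP and 4 in the difference between the regimes, and the consensus correlation within a culture was -0.00306. Quantile normalization moved the median of all probe sets by up to -0.21, for the diauxic shift over late expo, where all calls split into 873 higher and 1008 lower in place of 1175 and 771. The split was 590 and 585 in place of 962 and 398 at glucose exhaustion, 659 and 728 in place of 978 and 547 in early SP, 875 and 935 in place of 1106 and 779 in late SP, and 655 and 660 in place of 486 and 994 for aerobic late over early SP.

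Signal near the floor limited PHO84 in growing cells and SPL2 before glucose exhaustion, and PHO5 could not be measured at all. Phosphate in the medium and polyphosphate in the cells were not analysed here.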
